A study of Mus musculus with 6 samples.

Results

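The expression of 38 known p53 targets and regulators was compared between mouse embryonic fibroblasts (MEFs), primary cells of embryonic connective tissue, of WT and *Aff3ir-ORF2-/-* mice. The genes were chosen by name from general knowledge of the pathway, without the CDK inhibitors and with earlier results of these data known. All 38 were among the 17092 genes of the table of counts. Aff3ir-ORF2 is a product of a gene nested in an intron of *Aff3*, and the knockout was made with Cas9 and several guides in fertilised eggs, so that it is not limited to a cell type. RNA-seq was performed on 3 WT and 3 *Aff3ir-ORF2-/-* libraries of MEFs, for which the labels give no treatment. The sources used here do not state the sex or number of the embryos behind a library or whether the libraries came from separate cultures, so that p-values measure the spread between these libraries, which may be technical.

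The tumour suppressor p53, encoded by *Trp53*, is a transcription factor that is held at a low level by the ubiquitin ligase *Mdm2* and its partner *Mdm4* and is stabilised by DNA damage and other stress. Active p53 binds a response element made of a pair of decamer motifs, each called a half-site, and induces genes for growth arrest, apoptosis, DNA repair and metabolism, among them *Mdm2* itself, which closes a feedback loop. MEFs are a classical cell type for the study of this pathway, since culture stress engages p53 in them.

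The total estimated count was 17435133 to 17726034 in the WT and 18209421 to 18252330 in the *Aff3ir-ORF2-/-* libraries. The levels below are counts-per-million values (CPM), scaled between libraries by edgeR's TMM method. All 38 genes passed the filter on low counts, as did 13075 genes in all. The biological coefficient of variation was 0.0185 among WT and 0.0996 among *Aff3ir-ORF2-/-* libraries. Chi-square over its degrees of freedom was 1.38 to 1.71 for pairs of WT libraries, so that none was a copy of another. It was 5.56 for *Aff3ir-ORF2-/-* replicates 1 and 3, but 14.9 for replicates 1 and 2 and 18.9 for replicates 2 and 3. The fibroblast markers were present in every library, with a summed level over 15 genes of 33198 to 33282 CPM in WT and 27510 to 34902 in *Aff3ir-ORF2-/-* MEFs. Macrophage markers differed between the groups, since all 20 tested of 21 listed genes were higher and their sum went from between 25.2 and 28.4 CPM to between 1454 and 2476 CPM. Of the 21 genes, 3 were at 0 in every WT library. In bulk RNA, fewer cells of a type and less RNA per cell cannot be told apart. The part of macrophage RNA in the differences of the p53 target genes was not tested.

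The proximal promoters of the p53 target genes were searched for the decamer half-site consensus of p53, which reads the same on both strands. RefSeq promoters of GRCm38.p6, from 250 bases before to 50 bases after the start, were at hand for 30 of the 38 genes. An exact half-site lay in the promoters of 11 of the 30 genes (36.7%), against 8.46% of the 10425 tested genes with a promoter. A pair of half-sites with at most 1 base between them and at most 2 mismatches in all, the central C and G of each half-site kept, lay in 3 of the 30 genes (10%), against 0.94% of the tested genes. The genes were listed as known p53 targets and regulators, so these higher shares could follow from that choice. Binding in these cells was not measured. The pairs, with the half-sites in capitals and 10 bases of flank, are shown because they are the form that p53 binds.
Ccng1, chr11:40755452-40755491, minus strand, 1 mismatch: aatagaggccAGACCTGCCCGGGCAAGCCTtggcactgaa
Bax, chr7:45467069-45467109, minus strand, 2 mismatches: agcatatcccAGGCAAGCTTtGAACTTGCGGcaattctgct
Ckap2, chr8:22185993-22186032, minus strand, 2 mismatches: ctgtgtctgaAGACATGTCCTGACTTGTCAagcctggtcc
The pair of *Ccng1* lay 195 to 176 bases before the start, that of *Bax* 201 to 181 and that of *Ckap2* 203 to 184. Single exact half-sites of 4 further genes, among them *Trp53* itself and its regulators *Mdm2* and *Ppm1d*, are shown in the same way to let the feedback genes be compared.
Trp53, chr11:69580274-69580303, plus strand: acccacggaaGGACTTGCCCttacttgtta
Mdm2, chr10:117710925-117710954, minus strand: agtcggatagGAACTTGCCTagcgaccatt
Ppm1d, chr11:85311112-85311141, plus strand: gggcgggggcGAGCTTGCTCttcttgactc
Ei24, chr9:36797325-36797354, minus strand: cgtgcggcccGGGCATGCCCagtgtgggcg
The other genes with an exact half-site were *Aen*, *Gadd45a*, *Polk* and *Sesn1*. The whole promoter of *Ccng1* is given because its pair was the closest match among the members.
Ccng1, chr11:40755237-40755536, minus strand: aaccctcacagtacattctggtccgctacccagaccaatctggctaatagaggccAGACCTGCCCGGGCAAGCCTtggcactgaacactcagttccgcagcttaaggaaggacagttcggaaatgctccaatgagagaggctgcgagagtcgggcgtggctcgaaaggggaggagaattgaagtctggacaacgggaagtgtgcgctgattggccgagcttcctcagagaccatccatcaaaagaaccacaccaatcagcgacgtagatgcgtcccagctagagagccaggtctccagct
A match is a description of these letters, and many p53 sites lie outside such windows.

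Of the 38 genes, 9 rose and 3 fell in *Aff3ir-ORF2-/-* MEFs by edgeR's quasi-likelihood test at a Benjamini-Hochberg adjusted p of 0.05 and a change of at least 1.5-fold. This was 23.7% of the genes higher, against 14.2% of all tested genes, and 7.89% lower, against 7.27%, or 31.6% in either direction, against 21.4%. The genes that rose were *Perp*, *Pmaip1*, *Trp53inp1*, *Gdf15*, *Ccng2*, *Fas*, *Dcxr*, *Cd82* and *Psrc1*, and those that fell were *Plk2*, *Steap3* and *Plk3*. A further 14 genes were higher past the adjusted p threshold by less than 1.5-fold, which made 23 of 38 higher by the adjusted p alone (60.5%, against 29.3% of all tested genes). *Trp53* was the only further gene lower past it, which made 4 of 38 (10.5%, against 27.5%), and 27 of 38 in either direction, against 56.8% of all tested genes. The median log2 fold change was 0.33 over the 38 genes and 0.0056 over all tested genes. The changes were small in most genes, and *Trp53* itself was among the few that were lower.

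**Figure D1:**
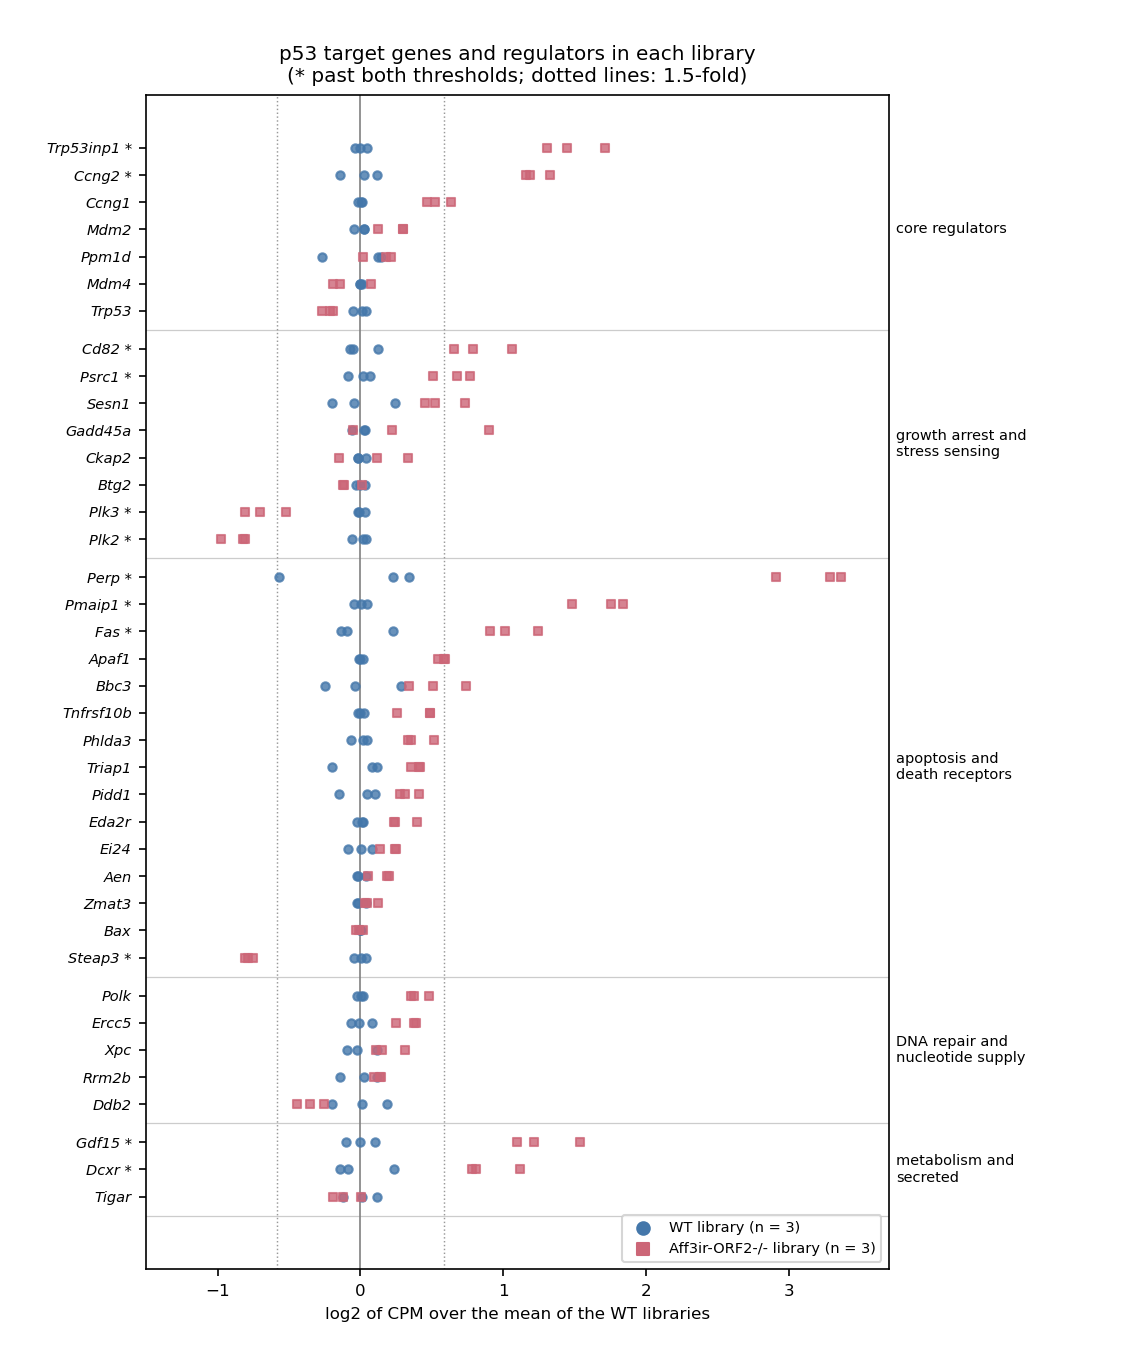
Level of each of the 38 genes in each library, as the log2 of its CPM over the mean of the 3 WT libraries, with circles for WT and squares for Aff3ir-ORF2-/- libraries. All 3 Aff3ir-ORF2-/- libraries lay above all WT libraries for 23 genes and below them for 5, and Perp lay farthest to the right.

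The *Aff3ir-ORF2-/-* libraries lay above every WT library for 23 of the 38 genes (60.5%, against 33.3% of tested genes) and below every WT library for 5 (13.2%, against 32.7%). The groups overlapped for the other 10 genes (26.3%). Of the 13075 tested genes, 8628 (66.0%) had groups that did not overlap, and the rest overlapped. The coefficient of variation over a gene's 3 libraries had a median of 3.8% in WT and 6.97% in *Aff3ir-ORF2-/-* MEFs, and it was larger in the latter for 21 of the 38 genes. *Aff3ir-ORF2-/-* replicate 2 was the highest of its group for 13 genes and the lowest for 20.

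**Figure D2:**
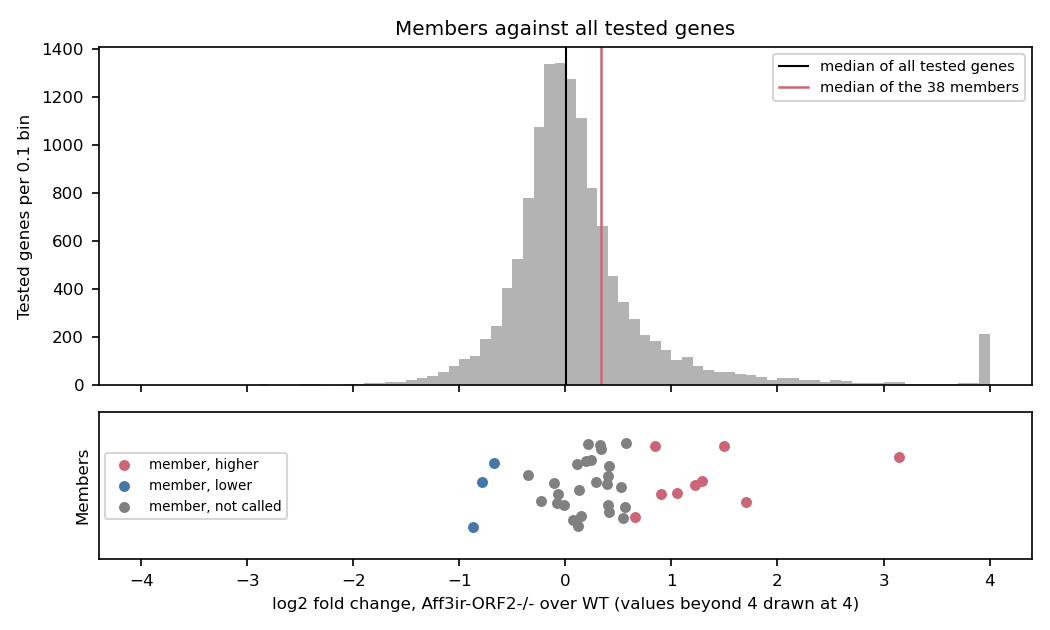
Distribution of the log2 fold change over the 13075 tested genes (grey bars, genes per bin of 0.1, values beyond 4 drawn at 4) and the values of the 38 members (points, spread vertically at random). The median of the members lay at 0.33 and that of all tested genes at 0.0056.

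*Trp53* (gene ID 22059) was at 137, 146 and 144 CPM in WT replicates 1, 2 and 3 and at 123, 118 and 124 CPM in *Aff3ir-ORF2-/-* replicates 1, 2 and 3. All *Aff3ir-ORF2-/-* libraries were lower, and the log2 fold change was -0.23 ± 0.05 (SE, adjusted p = 0.00204 by quasi-likelihood test of edgeR), a 1.17-fold difference that stayed under the fold threshold. *Mdm2* (gene ID 17246), the ligase that marks p53 for degradation and a p53 target, was at 194, 203 and 203 CPM in WT and 246, 218 and 247 CPM in *Aff3ir-ORF2-/-* libraries. Each *Aff3ir-ORF2-/-* library was above each WT library, with a log2 fold change of 0.24 ± 0.06 (SE, adjusted p = 0.00437, 1.18-fold). *Trp53* and *Mdm2* thus differed in opposite directions and by similar sizes.

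*Mdm4* (gene ID 17248), the *Mdm2* partner that blocks the transactivation domain of p53, was at 106, 105 and 105 CPM in WT and 95.6, 111 and 92.3 CPM in *Aff3ir-ORF2-/-* libraries. The groups overlapped, since replicate 2 was above and the other two *Aff3ir-ORF2-/-* libraries were below WT (log2 fold change -0.08 ± 0.07 SE, adjusted p = 0.326 by the same test). The log2 fold change of *Mdm4* was -0.17 once *Aff3ir-ORF2-/-* replicate 2 was left out (adjusted p = 0.00171). *Ppm1d* (gene ID 53892), the phosphatase that removes activating marks from p53 and its kinases, was at 11.4, 8.53 and 11.2 CPM in WT and 11.9, 10.4 and 11.7 CPM in *Aff3ir-ORF2-/-* libraries. These values overlapped as well, at a log2 fold change of 0.13 ± 0.12 (SE, adjusted p = 0.402).

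*Ccng1* (gene ID 12450), cyclin G1, a p53 target that recruits a phosphatase to *Mdm2*, was among the most abundant of the genes. It was counted at 487, 495 and 498 CPM in WT and 766, 682 and 707 CPM in *Aff3ir-ORF2-/-* libraries. All *Aff3ir-ORF2-/-* libraries were higher, but the log2 fold change of 0.54 ± 0.05 (SE, adjusted p = 2.31e-05), or 1.46-fold, was just under the fold threshold of 0.585 on the log2 scale. Its relative *Ccng2* (gene ID 12452), cyclin G2, which is known as a target of FoxO factors as well, was at 13.1, 15.6 and 14.7 CPM in WT and 32.3, 36.3 and 33 CPM in *Aff3ir-ORF2-/-* libraries. It rose 2.34-fold, with no overlap between the groups (log2 fold change 1.22 ± 0.08 SE, adjusted p = 3.52e-06). *Trp53inp1* (gene ID 60599), a stress protein that promotes p53 phosphorylation and autophagy, was at 39.3, 41.7 and 40.4 CPM in WT and 110, 133 and 100 CPM in *Aff3ir-ORF2-/-* libraries. It rose 2.82-fold (log2 fold change 1.5 ± 0.10 SE, adjusted p = 1.22e-05), and the groups lay far apart. Of the 7 regulators, 2 thus rose and none fell past both thresholds, against 14.2% and 7.27% of all tested genes. By the adjusted p alone 5 passed (71.4%, against 56.8% of all tested genes), 4 of them higher. Over all tested genes, 29.3% were higher by the adjusted p alone.

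The apoptosis and death receptor group held the largest rises of single genes, those of *Perp* and *Pmaip1*. Of its 15 genes, 3 rose and 1 fell, against 14.2% and 7.27% of all tested genes. By the adjusted p alone 13 passed (86.7%, against 56.8% of all tested genes), 12 of them higher. Over all tested genes, 29.3% were higher by the adjusted p alone. *Perp* (gene ID 64058), a tetraspan membrane protein of desmosomes that p53 induces in apoptosis, was low in WT, at 1.28, 2.22 and 2.40 CPM, and reached 19.5, 14.3 and 18.5 CPM in *Aff3ir-ORF2-/-* libraries. These were 22, 39 and 42 counts against 356, 266 and 339, and the rise was 8.82-fold (log2 fold change 3.14 ± 0.21 SE, adjusted p = 5.79e-06). *Perp* is also an epithelial gene. Of the 8 epithelial markers listed, 7 had too few counts to be tested. The summed level of the 8 was 4.18 to 4.92 CPM in WT and 3.65 to 5.44 CPM in *Aff3ir-ORF2-/-* libraries and was mostly *Krt18*, at 3.25 and 3.36 CPM on average. *Cldn4*, a claudin of tight junctions, had 1, 1 and 0 counts in WT and 16, 6 and 21 counts in *Aff3ir-ORF2-/-* libraries, whereas *Epcam* and *Krt8* were below every WT library. The part of epithelial genes in the value of *Perp* was not tested.

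*Pmaip1* (gene ID 58801), which encodes the BH3-only protein Noxa, was at 34.8, 32.7 and 33.8 CPM in WT and 121, 94.2 and 114 CPM in *Aff3ir-ORF2-/-* libraries. Every *Aff3ir-ORF2-/-* library was above every WT library, with a rise of 3.25-fold (log2 fold change 1.70 ± 0.09 SE, adjusted p = 2.32e-06). *Fas* (gene ID 14102), the death receptor CD95, was at 3.19, 3.98 and 3.09 CPM in WT and 6.37, 8.05 and 6.87 CPM in *Aff3ir-ORF2-/-* libraries. It rose 2.07-fold from a low level (log2 fold change 1.05 ± 0.16 SE, adjusted p = 3.41e-04). *Steap3* (gene ID 68428), a ferrireductase also known as TSAP6, went the other way, from 39.4, 40.3 and 38.1 CPM to 22.7, 22.4 and 23.3 CPM. It fell by 0.78 on the log2 scale (standard error 0.06, adjusted p = 5.45e-06), with libraries of each group close together.

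**Figure D3:**
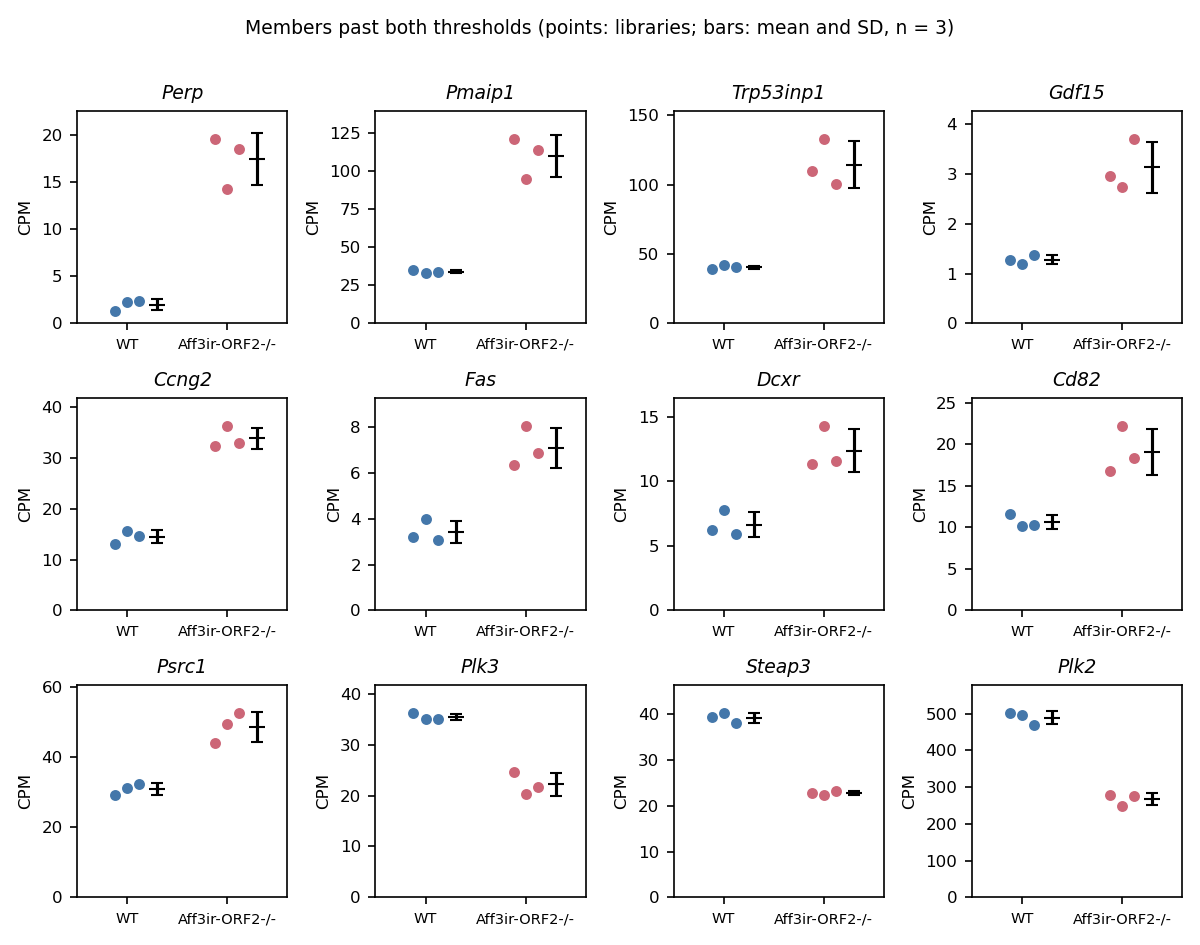
CPM of the 12 genes past both thresholds in each library, each panel on its own linear axis from 0, with the mean and SD of 3 libraries beside the points. No Aff3ir-ORF2-/- point lay within the range of the WT points in any panel, and Plk3, Steap3 and Plk2 were lower. The panels were chosen by these same libraries, and 66.0% of all tested genes had groups that did not overlap.

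The mitochondrial arm of apoptosis was uneven. *Bax* (gene ID 12028), the pore-forming effector with a pair of half-sites in its promoter, was at 118 ± 0.295 CPM in WT and 117 ± 2.03 CPM in *Aff3ir-ORF2-/-* MEFs (SD, n = 3 each). This was a difference of -0.0095 ± 0.04 on the log2 scale (SE, adjusted p = 0.855 by quasi-likelihood test of edgeR). The sign of the *Bax* value turned positive with upper quartile and total count scaling and with a filter of at least 10 counts in every library. *Bbc3*, which encodes Puma, was at 7.37 ± 1.39 against 10.6 ± 1.5 CPM (SD, n = 3; log2 fold change 0.52, adjusted p = 0.0161 in edgeR's test). *Apaf1*, the scaffold of the apoptosome, was at 52.8 ± 0.524 against 78.4 ± 1.38 CPM (SD, n = 3), which is 1.49-fold and lay just under the fold threshold (adjusted p = 8.04e-06 in edgeR's test). Its span overlaps that of *Ikbip* in RefSeq, and it is not stated whether the counting used strand. *Pidd1*, a death-domain adaptor, was 1.26-fold higher (adjusted p = 0.0172 by the same test). *Bbc3* lost the adjusted p threshold without WT replicate 2 (adjusted p = 0.0707) or WT replicate 3 (0.0627), and *Pidd1* without WT replicate 3 (0.0776) or *Aff3ir-ORF2-/-* replicate 3 (0.0533) and with the Wald test of DESeq2 (0.0542).

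Among the other receptors and effectors, the death receptor *Tnfrsf10b* was at 62.5 ± 0.912 CPM in WT and 83.3 ± 7.54 CPM in *Aff3ir-ORF2-/-* MEFs (SD, n = 3; 1.33-fold, adjusted p = 5.29e-04 in edgeR's test). *Eda2r*, the ectodysplasin A2 receptor, differed by 1.23-fold, and *Phlda3*, a pleckstrin-homology inhibitor of Akt, by 1.32-fold, both higher. *Aen*, an exonuclease of apoptosis, *Ei24*, a membrane protein of the endoplasmic reticulum, and *Triap1*, an inhibitor of the apoptosome, were 1.11-fold, 1.16-fold and 1.31-fold higher. These 5 genes passed the adjusted p threshold and did not overlap between the groups. *Aen* lost the threshold without WT replicate 2 or 3 or *Aff3ir-ORF2-/-* replicate 1 or 3 (adjusted p = 0.0857 to 0.125), with the Wald test of DESeq2 (0.0673) and with no filter on low counts (0.0553), and *Ei24* without WT replicate 2 (0.0572). *Zmat3*, a zinc finger RNA-binding protein and a direct p53 target, was at 143 ± 3.61 against 150 ± 4.82 CPM (SD, n = 3), which overlapped (log2 fold change 0.07 ± 0.04 SE, adjusted p = 0.217 in edgeR's test).

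Of the 8 genes of growth arrest and stress sensing, 2 rose and 2 fell, against 14.2% and 7.27% of all tested genes. By the adjusted p alone 5 passed (62.5%, against 56.8% of all tested genes), 3 higher and 2 lower. *Plk2* (gene ID 20620), a polo-like kinase of centriole duplication, had the highest WT level per length of all 38 genes. It was at 501, 495 and 469 CPM in WT and 279, 249 and 277 CPM in *Aff3ir-ORF2-/-* libraries, and fell by 0.87 on the log2 scale (standard error 0.06, adjusted p = 2.56e-06 by quasi-likelihood test of edgeR). *Plk3* (gene ID 12795), a stress-responsive kinase of the same family, was at 36.2, 35.0 and 35.1 CPM in WT and 24.7, 20.2 and 21.7 CPM in *Aff3ir-ORF2-/-* libraries. It fell by 0.67 on the log2 scale (standard error 0.08, adjusted p = 6.52e-05). Its span overlaps that of *Tctex1d4* in RefSeq. Both kinases are known as early serum-response genes too. Of 26 tested genes of a list of 27 immediate-early genes, 19 fell and none rose past both thresholds, against 7.27% and 14.2% of tested genes. The median log2 fold change of the list was -1.08, and 1 gene of it rose without WT replicate 1. *Egr2*, *Egr3* and *Fosb*, the listed genes with the smallest adjusted p, were at -3.57, -3.47 and -3.62. The part of that response in the values of *Plk2* and *Plk3* was not tested.

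*Btg2*, an antiproliferative gene that is induced both by p53 and by serum, was at 76.9 ± 1.59 against 73.1 ± 3.80 CPM (SD, n = 3), and the groups overlapped (log2 fold change -0.07 ± 0.05 SE, adjusted p = 0.253 in edgeR's test). Without *Aff3ir-ORF2-/-* replicate 2, *Btg2* was at -0.12 (adjusted p = 0.0243). *Gadd45a*, a stress sensor that p53 and other factors induce, depended on 1 library. It was at 22.7, 22.6 and 21.4 CPM in WT and 25.9, 41.4 and 21.4 CPM in *Aff3ir-ORF2-/-* libraries. Its log2 fold change of 0.41 ± 0.25 (SE, adjusted p = 0.214 by the same test) was 0.085 without *Aff3ir-ORF2-/-* replicate 2. Without *Aff3ir-ORF2-/-* replicate 3 it was 0.60 and passed both thresholds (adjusted p = 0.0442). *Sesn1*, sestrin 1, an inhibitor of mTORC1 signalling, was at 6.30 ± 0.993 against 9.31 ± 0.970 CPM (SD, n = 3; 1.48-fold, adjusted p = 0.0065 in edgeR's test), just under the fold threshold.

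*Cd82* (gene ID 12521), a tetraspanin that restrains metastasis, was at 11.6, 10.1 and 10.2 CPM in WT and 16.7, 22.2 and 18.4 CPM in *Aff3ir-ORF2-/-* libraries. It rose 1.79-fold (log2 fold change 0.84 ± 0.12 SE, adjusted p = 2.15e-04). *Psrc1* (gene ID 56742), a microtubule-associated protein of the mitotic spindle, was at 29.2, 31.3 and 32.5 CPM in WT and 44.1, 49.5 and 52.6 CPM in *Aff3ir-ORF2-/-* libraries. It rose 1.57-fold (log2 fold change 0.65 ± 0.08 SE, adjusted p = 7.45e-05). *Ckap2*, another spindle protein, was at 46.6 ± 1.04 against 50.4 ± 8.41 CPM (SD, n = 3), and the groups overlapped (adjusted p = 0.407 in edgeR's test). The log2 fold change of *Ckap2* was 0.11, against 0.23 without *Aff3ir-ORF2-/-* replicate 2 (adjusted p = 0.0048) and -0.015 without replicate 3. Of 25 listed mitosis genes none rose and 5 fell past both thresholds, against 14.2% and 7.27% of all tested genes. Their median log2 fold change was -0.36. The count that fell was 3 without *Aff3ir-ORF2-/-* replicate 2 and 10 without replicate 3. *Top2a*, *Ccna2* and *Kif11*, the listed genes with the smallest adjusted p, fell by 0.73, 0.70 and 0.63 on the log2 scale. *Ccnb2*, cyclin B2, was the only gene of the list higher past the adjusted p threshold, at 0.28 (adjusted p = 0.0469).

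None of the 5 genes of DNA repair and nucleotide supply passed both thresholds, against 21.4% of all tested genes. By the adjusted p alone 2 passed (40%, against 56.8% of all tested genes), both higher. *Polk*, a translesion DNA polymerase, was at 33.8 ± 0.525 against 44.8 ± 2.17 CPM (SD, n = 3; 1.32-fold, adjusted p = 2.50e-04 in edgeR's test). *Ercc5*, which encodes the nuclease XPG of nucleotide excision repair, was 1.26-fold higher (adjusted p = 0.00164 by the same test). *Ddb2* and *Xpc*, the damage sensors of the same repair pathway, did not pass the threshold, with log2 fold changes of -0.36 (standard error 0.18) and 0.19 (standard error 0.09). *Ddb2* was scarce, at 49, 43 and 56 counts in WT and 43, 41 and 38 counts in *Aff3ir-ORF2-/-* libraries, and its span overlaps that of *Acp2* in RefSeq. *Rrm2b*, the p53-inducible subunit of ribonucleotide reductase, was at 17.1 ± 1.51 against 18.6 ± 0.319 CPM (SD, n = 3), within the replicate error (adjusted p = 0.224 in edgeR's test).

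Of the 3 genes of metabolism and secretion, 2 rose, against 14.2% of all tested genes. By the adjusted p alone the same 2 passed (66.7%, against 56.8% of all tested genes). *Dcxr* (gene ID 67880), a dicarbonyl and L-xylulose reductase, was at 6.21, 7.74 and 5.95 CPM in WT and 11.3, 14.3 and 11.6 CPM in *Aff3ir-ORF2-/-* libraries, a rise of 1.87-fold (log2 fold change 0.90 ± 0.14 SE, adjusted p = 4.02e-04). *Gdf15* (gene ID 23886), a stress-induced hormone of the TGF-beta family, was low in both groups, at 1.28, 1.19 and 1.37 CPM in WT and 2.97, 2.74 and 3.71 CPM in *Aff3ir-ORF2-/-* libraries. The counts were 22, 21 and 24 against 54, 51 and 68, and the rise was 2.44-fold (log2 fold change 1.29 ± 0.21 SE, adjusted p = 5.84e-04). *Tigar*, a fructose bisphosphatase that limits glycolysis, was at 24.7 ± 2.06 against 23.0 ± 1.61 CPM (SD, n = 3) and overlapped (adjusted p = 0.299 in edgeR's test). *Gdf15*, *Pmaip1* and *Tnfrsf10b* are also known targets of the stress factors ATF4 and CHOP. Of a list of 18 ATF4 and CHOP target genes, 3 rose and 2 fell, against 14.2% and 7.27% of all tested genes. Their median log2 fold change was -0.17. *Ddit3*, which encodes CHOP, rose by 0.82 on the log2 scale (standard error 0.15, adjusted p = 0.00324 from edgeR's test), as did *Ddit4* by 1.37 and *Nupr1* by 1.23, while *Mthfd2* and *Ppp1r15a* fell by 0.66 and 0.97.

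The order of the genes by level was read from CPM per kilobase of the longest GENCODE M21 transcript. In WT MEFs, *Plk2* led with 175 CPM per kb, followed by *Ccng1* with 140, *Bax* with 107, *Phlda3* with 66.1, *Mdm2* with 63.7 and *Trp53* with 43.5. In *Aff3ir-ORF2-/-* MEFs, *Ccng1* led with 205, followed by *Bax* with 106, *Plk2* with 95.7 and *Phlda3* with 87.4. *Pmaip1* moved from place 18 of 38 at 12.4 CPM per kb in WT to place 7 at 40.2. The lowest levels in WT were those of *Gdf15* at 0.829, *Perp* at 1.01 and *Ddb2* at 1.23 CPM per kb.

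The promoter search was set beside the calls. None of the 6 genes that rose and had a promoter entry, and none of the 3 that fell, held an exact half-site. Of the tested genes with a promoter, 8.46% held one. The called genes with an entry were few, and a link between half-sites and calls was not tested. All 11 genes with a half-site were among the 21 genes with an entry that were not called. Of these 11, *Ccng1*, *Mdm2*, *Polk*, *Ei24*, *Aen* and *Sesn1* were higher past the adjusted p threshold, *Trp53* was lower, and *Bax*, *Ckap2*, *Ppm1d* and *Gadd45a* did not pass it. *Perp*, *Pmaip1*, *Trp53inp1*, *Ddb2*, *Xpc*, *Zmat3*, *Rrm2b* and *Tnfrsf10b* had no entry in the table of promoters.

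Further genes of the pathway were read from lists written by hand. Of 40 other p53 target genes, 39 were tested, of which 10 rose and 4 fell past both thresholds. Over all tested genes, 14.2% rose and 7.27% fell. The median log2 fold change of the list was 0.29. By the adjusted p alone, 23 of the list were higher and 6 lower, against 29.3% and 27.5% of all tested genes. *Tob1*, an antiproliferative gene related to *Btg2*, rose from 10.3 ± 0.318 to 27.2 ± 1.10 CPM (SD, n = 3; log2 fold change 1.40, adjusted p = 1.10e-06 in edgeR's test). *Pltp*, the phospholipid transfer protein, rose from 3.56 ± 0.189 to 18.4 ± 3.67 CPM and *Ak1*, adenylate kinase 1, from 73.2 ± 3.83 to 110 ± 0.872 CPM (SD, n = 3). The replication clamp *Pcna*, a gene of S phase, fell by 0.90 on the log2 scale, and *Prodh*, proline dehydrogenase, fell by 1.27.

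Of 30 upstream regulators and partners of p53, 28 were tested, of which 1 rose and 3 fell past both thresholds. Over all tested genes, these shares were 14.2% and 7.27%. By the adjusted p alone 3 of the list were higher and 13 lower, against 29.3% and 27.5% of all tested genes. The median log2 fold change of the list was -0.14. *Hipk2*, a kinase that phosphorylates p53 in the response to severe damage, rose from 101 ± 5.76 to 158 ± 13.8 CPM (SD, n = 3; log2 fold change 0.64, adjusted p = 5.73e-05 in edgeR's test). The DNA damage kinases *Chek1* and *Prkdc* fell by 0.89 and 0.63 on the log2 scale, and *Sirt1*, a deacetylase of p53, fell by 0.60. The p53 relatives *Trp63* and *Trp73* had too few counts to be tested.

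**Figure D4:**
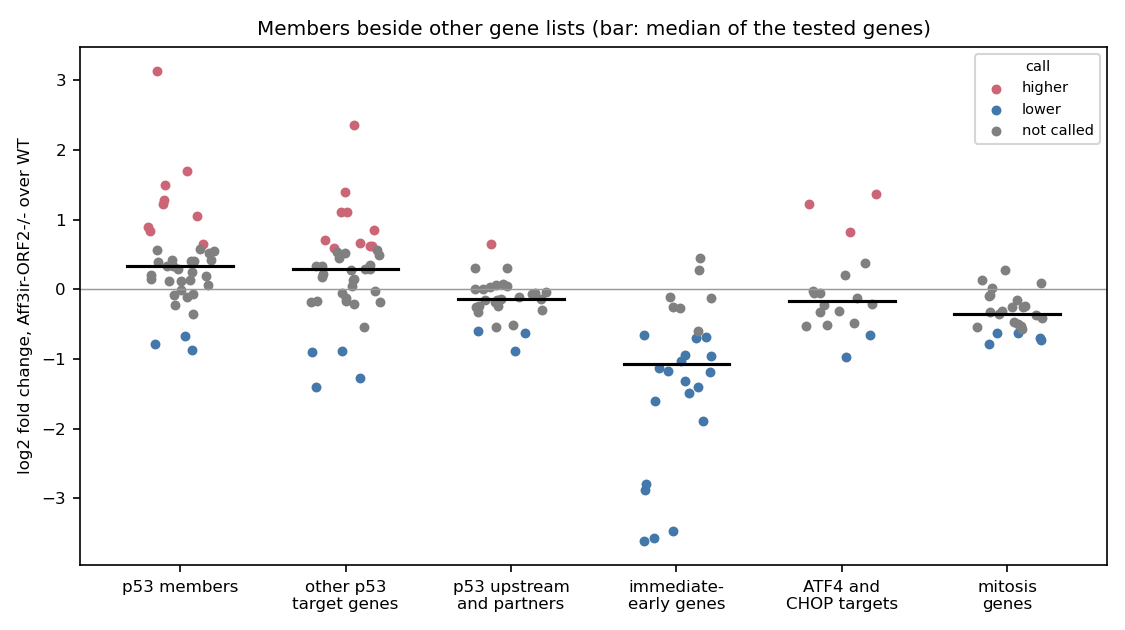
Log2 fold change of the tested genes of 6 lists, Aff3ir-ORF2-/- over WT, with a bar at the median of each list and colours for the calls. The medians lay at 0.33 for the members, 0.29 for the other p53 targets, -0.14 for upstream genes, -1.08 for immediate-early genes, -0.17 for ATF4 and CHOP targets and -0.36 for mitosis genes.

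The level of the macrophage markers, summed, was 1454, 2009 and 2476 CPM in *Aff3ir-ORF2-/-* replicates 1, 2 and 3. Of the 9 p53 target genes that rose, 5 were lowest in the library where the sum was lowest (*Ccng2*, *Cd82*, *Fas*, *Dcxr* and *Psrc1*), of which *Psrc1* had all 3 libraries in the order of the sum, and 2 were highest in that library (*Perp* and *Pmaip1*). With 3 libraries such an order is a description only. Of the other cell types, 3 endothelial markers rose and 1 fell among 6 tested, against 14.2% and 7.27% of all tested genes. The summed level of the list was 11.7 to 12.2 CPM in WT and 19.2 to 24.0 CPM in *Aff3ir-ORF2-/-* MEFs. *Kdr* rose from 4.84 to 9.75 CPM on average, *Vwf* from 1.13 to 5.35 and *Erg* from 0.287 to 1.66. *Cdh5* fell, and *Tek* and *Egfl7* were below every WT library without a call. *Pecam1* had too few counts to be tested. Of 2 tested skeletal muscle markers, *Des* rose from 10.9 to 48.1 CPM on average and made up most of the sum over the list, which was 11.5 to 12.1 CPM in WT and 39.3 to 57.6 CPM in *Aff3ir-ORF2-/-* libraries. *Mylpf* was not called, and its counts were 17, 11 and 15 in WT, against 8, 8 and 10 in the *Aff3ir-ORF2-/-* libraries. Of the 15 fibroblast markers, 2 rose and 1 fell, against 14.2% and 7.27% of all tested genes. By the adjusted p alone 4 were higher and 5 lower, against 29.3% and 27.5% of all tested genes. The most abundant fibroblast marker, *Fn1*, was higher by 0.45 on the log2 scale (adjusted p = 2.38e-04 in edgeR's test), under the fold threshold. The next most abundant, *Col1a1* and *Col1a2*, were lower by 0.49 and 0.41 (adjusted p = 0.0125 and 0.0366 in edgeR's test). *Vim* and *Col5a1* were lower past the adjusted p threshold as well, and *Postn* was the marker that fell. *Pdgfrb* and *Lum* were those that rose, and *Prrx1* was higher past the adjusted p alone.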

How the data were processed

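RNA-seq of WT and *Aff3ir-ORF2-/-* MEFs, 3 libraries each, was analysed. The authors had paired-end reads filtered with SOAPnuke and deposited estimated counts of genes in a single table, without normalization. The aligner, counter and annotation are not given in the sources used here. The submitters' processing notes name the build mm8, so no coordinates were taken from the counts, and those printed belong to the RefSeq promoters of GRCm38.p6. A share of 10.6% to 11.3% of each library's values had decimals, and all values were rounded. Total counts ranged from 17435133 to 18252330. A count of 3 is 0.161 to 0.174 CPM.

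Low counts were removed by the filterByExpr function (minimum count 10, minimum total 15) of edgeR 4.0.16. Libraries were scaled by TMM and tested with the quasi-likelihood test with its robust option, without covariates. The standard error was taken as the log2 fold change over the square root of F. A gene was called at an adjusted p (Benjamini-Hochberg) under 0.05 over the 13075 tested genes and the 1.5-fold change the study used. R 4.3.3, limma 3.58.1, DESeq2 1.42.0, Python 3.11.15 and matplotlib 3.10.9 were used. The functions were tested on simulated data with the same spread in both groups, which these libraries did not have.

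The members and all lists were chosen with earlier results of these data known. All members are named, with CPM per library for those past both thresholds and for *Trp53*, *Mdm2*, *Mdm4* and *Ppm1d*, and otherwise with group means or folds. *Ccng1* and *Gadd45a* were given per library after their values were seen. Of each pathway list up to 3 called genes in each direction with the smallest adjusted p are named, except for 1 gene that is not reported here. Cell type lists were macrophage, fibroblast, endothelial, epithelial and skeletal muscle. Alternatives were 3 other scalings, 2 other filters, limma voom weighted by genotype, the Wald test of DESeq2, each library left out in turn, a block for replicate number, and other thresholds. The fit without the robust option was added after seeing the data. The targeted transcript was not analysed here.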

Additional observations from a re-analysis of the deposited data

How the results depend on the processing

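The 12 members past both thresholds kept their direction and stayed past both under all 15 alternative fits, and the counts of 9 higher and 3 lower members ranged up to 11 higher (upper quartile and total count scaling, and without *Aff3ir-ORF2-/-* replicate 3) with 3 lower in every fit. The median over members ranged from 0.31 to 0.37. With no fold threshold, 3831 genes were higher and 3591 lower over all tested genes (1851 and 951 with it), 23 members were higher, 3 upstream genes were higher and 13 lower, and 23 other targets were higher. With a 2-fold threshold, the numbers were 1096 and 317 genes, 6 higher and 0 lower members, 0 higher and 0 lower upstream genes, and 4 higher and 2 lower other targets; members at an unadjusted p under 0.05 with that 1.5-fold change were 9 and 3. *Apaf1* passed both thresholds with upper quartile (0.61) and total count scaling (0.60), and *Sesn1* (0.60 and 0.59) did so as well. *Sesn1* also passed without WT replicate 2 or *Aff3ir-ORF2-/-* replicate 1 (0.69 and 0.61), and *Bbc3* without WT replicate 1 or *Aff3ir-ORF2-/-* replicate 3 (0.68 and 0.61). The cause was not tested. The sign changed for *Bax* with upper quartile scaling (0.028), total counts (0.019) and at least 10 counts in every library (0.0026), and for *Ckap2* without *Aff3ir-ORF2-/-* replicate 3 (-0.015, the lowest when leaving out 1 library, with 0.23 the highest). The replicate numbers are not known to pair the libraries, and the deviations of same-numbered libraries correlated at 0.053, 0.045 and 0.022, though each library correlated best with its own number. With the replicate block, 1854 genes were higher and 954 lower, with 9 and 3 members. Low counts limit *Perp*, *Gdf15*, *Ddb2* and *Fas* most.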
